A study of Mus musculus with 3 samples.

Results

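The genes of 10 cytokine receptor chains were examined in hematopoietic stem and progenitor cells (HSPCs) of mouse bone marrow: Il3ra, Csf2ra, Csf2rb, Csf2rb2, Il5ra, Il6st, Il6ra, Il2rg, Il7r and Il4ra. They were chosen by symbol as chains of receptors that share a signalling subunit, and all 10 were found among 24421 gene symbols. RNA was sequenced in 3 control libraries, numbered by the replicate number in their titles. The cells came from C57BL/6 mice of the genotype Cicflox/flox that had received tamoxifen, in which both alleles of Cic, the gene of the transcriptional repressor Capicua, are flanked by loxP sites. They had been sorted as Lin- cKit+ Sca-1+ cells. The labels give no age, do not name a Cre driver, and do not say whether the libraries came from separate mice, so the spread between libraries may be technical. The study concerned Capicua loss and T cell leukaemia, the other mouse group of its design was not analysed here, and the values describe control cells without a contrast between genotypes.

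Receptors of these families are assembled from a chain that binds 1 cytokine and a chain that several cytokines use in common to switch on JAK kinases and STAT transcription factors. The beta common chain (Csf2rb) serves the receptors of IL-3, GM-CSF and IL-5, and mice carry a further beta chain, Csf2rb2, that works with the IL-3 receptor only. The chain gp130 (Il6st) serves IL-6 and its relatives, and the common gamma chain (Il2rg) serves IL-2, IL-4, IL-7, IL-9, IL-15 and IL-21. In bone marrow IL-3 and GM-CSF act on myeloid growth, IL-5 on eosinophils, IL-6 on progenitor expansion, and IL-7 on early lymphoid cells.

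The libraries numbered 1, 2 and 3 held 30718562, 25097769 and 30032593 gene counts, and levels are given as CPM, the usual scaling of a count to the gene counts of its library, as mean ± SD over the 3 libraries. Library 1 lay farther from the others: 653 and 671 of 12965 genes differed over 2-fold from libraries 2 and 3 in log2(CPM + 0.5), against 311 genes between libraries 2 and 3. Of the sort markers, Kit lay at 826 ± 71.0 CPM and Ly6a, the gene of Sca-1, at 103 ± 9.50 CPM, while the lineage gene Cd8a lay at 0.349 ± 0.151 CPM and Cd4 at 8.97 ± 5.46 CPM. Itgam, the gene of the lineage marker CD11b, was at 138 ± 8.82 CPM, with 66.3% of its 50-base words shared with another annotated gene. Ptprc, also on the list of sort markers, was at 357 ± 11.7 CPM. In RNA from a pool of cells, a smaller share of expressing cells and less RNA per cell cannot be told apart. A count of 0 allows up to 0.0977, 0.120 and 0.0999 CPM in libraries 1, 2 and 3 (3 counts each), a floor that covers counting error only.

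All 10 receptor chain genes were expressed in the control HSPCs. Each reached a mean of 1 CPM, as did 53.1% of all genes, and their median was 43.1 CPM, beside 25.9 CPM over all genes at 1 CPM or more. The 3 shared chains were the most abundant, and together they held 65.0 ± 1.28% of the CPM of the 10 genes. The summed level was 599, 597 and 596 CPM in libraries 1, 2 and 3. The library totals behind it include the ribosomal RNA entry Rn45s, at 11.8%, 8.20% and 7.91% of gene counts in turn. How close these sums lie therefore depends on the scaling.

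**Figure D1:**
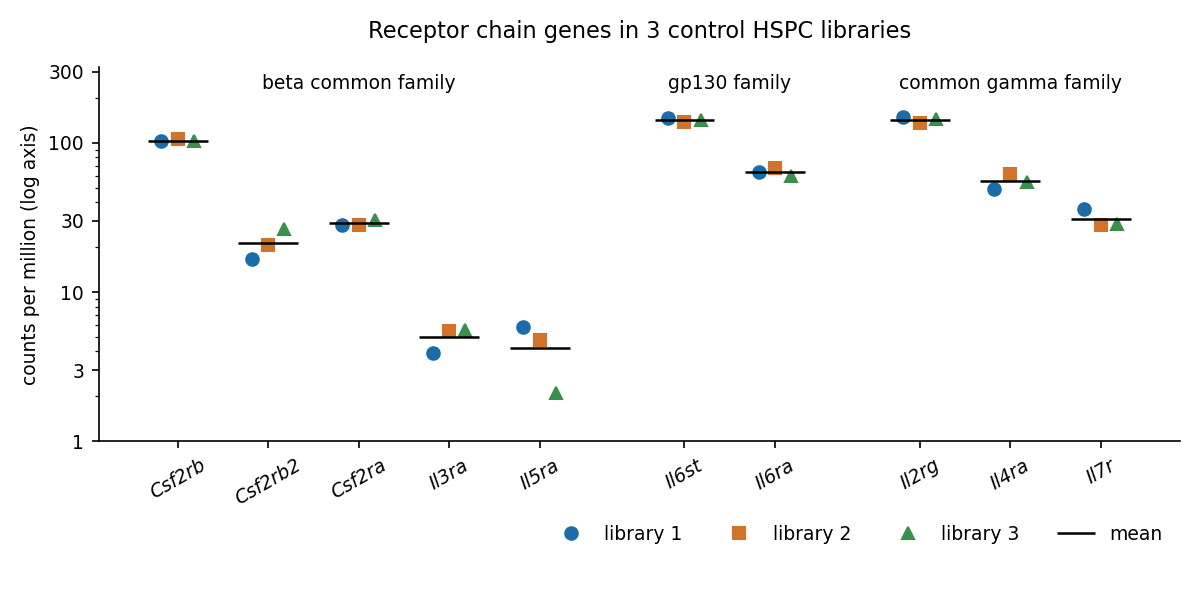
Level of each receptor chain gene in CPM (log axis) in the 3 control libraries, grouped by receptor family, with a line at the mean. The shared chains Csf2rb, Il6st and Il2rg lie above 100 CPM in every library, Il3ra and Il5ra under 6 CPM, and Il5ra has the widest spread.

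In the beta common family the shared chain was the leading gene. Csf2rb (ENSMUSG00000071713.6, chr15:78325752-78353847, plus strand, GRCm38) was counted 3141, 2645 and 3089 times (libraries 1, 2 and 3 in turn), which made 102, 105 and 103 CPM. This was the tightest spread of the 10 genes, with a coefficient of variation of 1.61%. Csf2rb2, the IL-3-specific beta chain, lies beside it on the other strand (ENSMUSG00000071714.7, chr15:78282507-78305721). It was counted 512, 521 and 792 times, or 16.7, 20.8 and 26.4 CPM, lowest in library 1 and highest in library 3. Csf2rb2 thus had 16.3%, 19.7% and 25.6% as many counts as Csf2rb in libraries 1, 2 and 3.

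The beta chain genes are near copies, and reads that match both cannot be assigned to either. Their coding sequences in GENCODE M21 aligned over 2628 bases with 95.2% identity (125 differing bases). The transcripts shared 892 words of 50 bases, which were 18.4% of the words of Csf2rb2 and 12.3% of those of Csf2rb. The longest identical stretch, coding bases 2083 to 2324 in both genes (chr15:78284630-78284871 in Csf2rb2 and chr15:78348577-78348818 in Csf2rb, each inside 1 coding exon), shows sequence on which reads of the genes cannot be separated:
Csf2rb2 and Csf2rb: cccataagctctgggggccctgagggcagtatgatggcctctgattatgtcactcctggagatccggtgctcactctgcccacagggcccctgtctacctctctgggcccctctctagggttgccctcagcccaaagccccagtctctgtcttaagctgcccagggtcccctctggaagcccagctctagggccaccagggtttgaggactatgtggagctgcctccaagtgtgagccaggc

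The most divergent 120 aligned coding bases, with 22 differences in capitals, show where reads do tell the genes apart. They are coding bases 312 to 431 of Csf2rb2 and 309 to 428 of Csf2rb, and both stretches run across a splice junction (chr15:78292838-78294433, minus strand, and chr15:78338898-78340471, plus strand):
Csf2rb2: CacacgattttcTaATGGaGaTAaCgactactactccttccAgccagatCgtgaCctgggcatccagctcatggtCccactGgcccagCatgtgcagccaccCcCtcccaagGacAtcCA
Csf2rb: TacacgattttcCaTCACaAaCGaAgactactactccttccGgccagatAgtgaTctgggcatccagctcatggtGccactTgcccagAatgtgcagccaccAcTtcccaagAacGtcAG
When each count was divided by the number of words found in no other gene, Csf2rb2 lay at 26.5%, 32% and 41.7% of Csf2rb in libraries 1, 2 and 3. The files hold 1 count per gene, so reads could not be limited to those words. With this scaling too, Csf2rb2 was below Csf2rb in every library.

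Of the ligand-binding chains of this family, Csf2ra led. Csf2ra, the alpha chain of the GM-CSF receptor (ENSMUSG00000059326.7, chr19:61223957-61228429, minus strand), was counted 863, 705 and 913 times, or 28.1, 28.1 and 30.4 CPM. Il3ra, the alpha chain of the IL-3 receptor (ENSMUSG00000068758.8, chr14:14346275-14356011, plus strand), had 120, 137 and 167 counts, or 3.91, 5.46 and 5.56 CPM. Libraries 2 and 3 were close for Il3ra and library 1 was lower. Il5ra, the alpha chain of the IL-5 receptor that marks eosinophil precursors (ENSMUSG00000005364.11, chr6:106710357-106749037, minus strand), had 180, 120 and 63 counts, or 5.86, 4.78 and 2.10 CPM. Library 3 held the lowest Il5ra level, and without it the mean was 5.32 CPM in place of 4.25 ± 1.94 CPM.

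In the gp130 family both members were well above most genes. Il6st (ENSMUSG00000021756.12, chr13:112464070-112510086, plus strand) was counted 4488, 3463 and 4249 times, or 146, 138 and 141 CPM. Il6ra, the chain that binds IL-6 (ENSMUSG00000027947.11, chr3:89864059-89913196, minus strand), was counted 1949, 1698 and 1792 times, or 63.4, 67.7 and 59.7 CPM. The range of Il6ra stayed under that of Il6st in every library, and both genes differed little between libraries.

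In the common gamma family the shared chain again stood above its partners. Il2rg (ENSMUSG00000031304.18, chrX:101264378-101268255, minus strand) was counted 4553, 3419 and 4316 times, or 148, 136 and 144 CPM. The annotation places a further transcript gene, Gm20489, over 30.5% of the Il2rg exon bases on the same strand, and since it is not counted as a gene of its own here, its reads would fall to Il2rg. Il4ra, the IL-4 binding chain (ENSMUSG00000030748.9, chr7:125552120-125579474, plus strand), had 1499, 1559 and 1652 counts, or 48.8, 62.1 and 55.0 CPM. It overlaps Gm44876 on the opposite strand over 9.51% of its exon bases, and without a stated strand setting their reads cannot be told apart. Il7r, the IL-7 binding chain that also marks early lymphoid progenitors (ENSMUSG00000003882.5, chr15:9505788-9530176, minus strand), had 1106, 707 and 857 counts, or 36.0, 28.2 and 28.5 CPM. Library 1 was the highest for Il7r and the lowest for Il4ra.

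Levels of different genes were compared per kilobase of exons, since a longer transcript yields more reads. On this scale Il2rg was the highest of the 10 genes at 59.8 ± 2.54 CPM per kilobase, above 97.9% of 23376 genes with an annotated length. Csf2rb followed at 14.2 ± 0.229, Il6st at 12.8 ± 0.367, Csf2ra at 10.1 ± 0.464 and Il4ra at 9.21 ± 1.11 CPM per kilobase. Below them came Il6ra at 7.36 ± 0.462, Il7r at 6.63 ± 0.948, Csf2rb2 at 4.49 ± 1.03, Il3ra at 1.68 ± 0.312 and Il5ra at 1.19 ± 0.542 CPM per kilobase, the last above 53.4% of genes. Ranges over the libraries overlapped for the neighbours Csf2ra and Il4ra, Il6ra and Il7r, and Il3ra and Il5ra, so those pairs did not differ beyond their spread. The other neighbours in this order had no overlap per kilobase of exons. Il6st and Csf2ra did overlap with the longest coding transcript as length, and Il7r and Csf2rb2 with the number of unique words. Il2rg stayed first, Csf2rb2 in position 8, Il3ra in position 9 and Il5ra last with the longest coding transcript, the coding length or the number of unique words as length. Il6ra moved to position 3 and Csf2rb to position 4 when only coding length was used.

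Within each library, each chain was set against the shared chain of its family. For Csf2rb2, itself a beta chain, this set the beta chains against each other. The scale was log2(CPM per kilobase + 0.5), which understates the gaps of low genes. In all 7 comparisons the first chain was lower than the shared chain in 3 of 3 libraries. With 3 libraries the exact permutation test by sign flips (two-sided) cannot go below p = 0.25, which each comparison reached, and Benjamini-Hochberg adjustment over the 7 left it at 0.25, so none could pass a threshold of 0.05.

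Of the alpha chains of the beta common family, Csf2ra lay apart from Il3ra and Il5ra, whose ranges overlapped. Csf2ra lay nearest to the shared chain, at 69.6%, 67.6% and 74.9% of the per-kilobase level of Csf2rb in libraries 1, 2 and 3 (log2 difference -0.48, SD 0.07). Il3ra lay at 9.37%, 12.7% and 13.3% of Csf2rb (log2 difference -2.77, SD 0.20). Il5ra lay at 11.7%, 9.23% and 4.15% of Csf2rb (log2 difference -3.18, SD 0.51). The 3 alpha chains together came to 90.8 ± 1.42% of Csf2rb alone, and to 69.2 ± 3.16% of the summed beta chains. The IL-3-specific Csf2rb2 lay at 25.0%, 30.2% and 39.4% of Csf2rb (log2 difference -1.58, SD 0.29). The log2 difference of Csf2rb2 was -2.14 with the longest coding transcript as length and -2.21 with coding length. It was -2.28 without length correction and -1.52 with the number of unique words.

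In the gp130 family Il6ra lay at 55.8%, 63.0% and 54.2% of Il6st (log2 difference -0.76, SD 0.11), and with coding length alone the log2 difference was -0.16. In the common gamma family both chains were far below Il2rg. Il7r lay at 12.4%, 10.6% and 10.2% of Il2rg (log2 difference -3.09, SD 0.14). Il4ra lay at 13.1%, 18.1% and 15.2% of Il2rg (log2 difference -2.64, SD 0.23). Of the levels behind these values that of Il2rg is uncertain, since 27.5% of the words of Il2rg are shared with Gm20489. Without length correction the log2 differences were -1.83 for Csf2ra, -4.26 for Il3ra and -4.55 for Il5ra against Csf2rb, and -2.20 for Il7r and -1.37 for Il4ra against Il2rg.

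**Figure D2:**
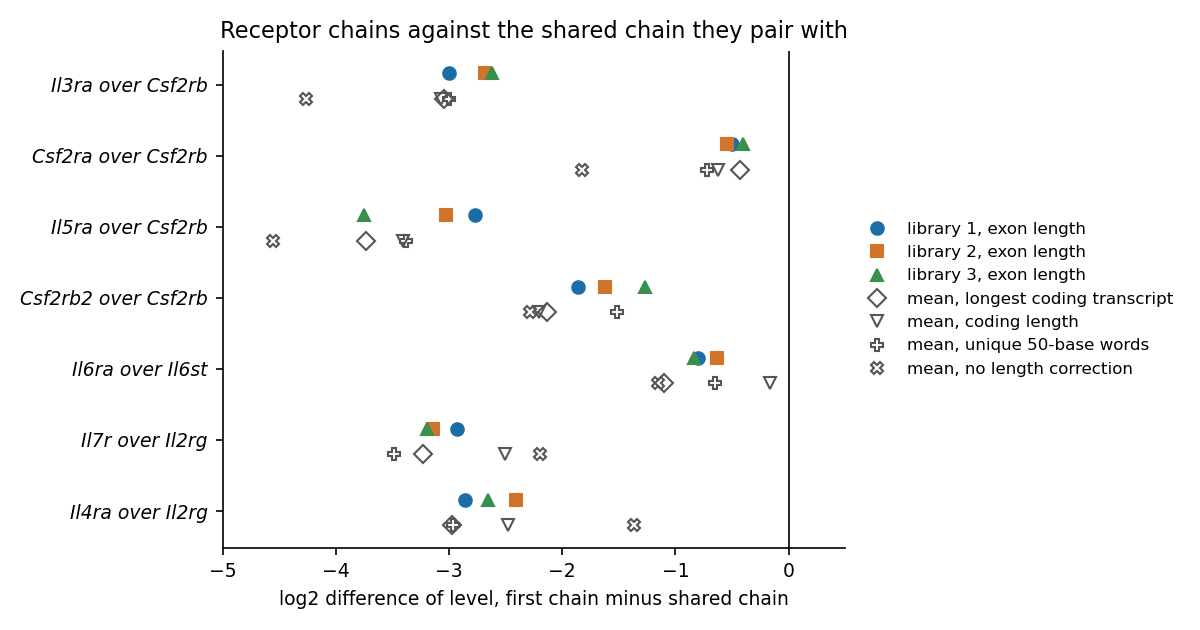
Log2 difference in level between each chain and the shared chain of its family. Filled marks are the 3 libraries per kilobase of exons (pseudocount 0.5), and open marks are the mean with other lengths or with none. Each mark lies left of 0, from -0.16 for Il6ra over Il6st with coding length to -4.55 for Il5ra over Csf2rb without length correction.

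Other chains of the gp130 and common gamma families, not among the 10 genes, ranged from no count to the level of Il7r and above. Of 7 gp130 family genes 5 reached 1 CPM. Il27ra, which binds IL-27, lay at 8.28 ± 0.596 CPM per kilobase, and Il11ra1, which binds IL-11, at 3.42 ± 0.968 CPM per kilobase, an uncertain value since 46.3% of its words are shared with Gm13305. Lifr, the receptor chain of leukaemia inhibitory factor, lay at 0.740 ± 0.139 CPM per kilobase. Osmr, the oncostatin M receptor chain, had 0, 12 and 17 counts in libraries 1, 2 and 3, and Cntfr, the chain for ciliary neurotrophic factor, had no count in any library. Il6st made up 39.3 ± 2.44% of the summed per-kilobase level of this family, Il27ra 25.4 ± 1.28% and Il6ra 22.6 ± 0.487%. Il6ra, Il11ra1 and Il27ra together came to 139.9%, 167% and 141% of Il6st in libraries 1, 2 and 3, above the shared chain in each, with the level of Il11ra1 uncertain.

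Of 8 common gamma family genes 7 reached 1 CPM. Il21r, the IL-21 binding chain, lay at 7.01 ± 0.542 CPM per kilobase, between the means of Il7r and Il4ra, and Il15ra, the IL-15 binding chain, at 3.83 ± 0.507 CPM per kilobase. The chains of the IL-2 receptor other than Il2rg were low: Il2ra (CD25) lay at 0.357 ± 0.160 and Il2rb (CD122) at 0.336 ± 0.256 CPM per kilobase. Il9r, the IL-9 binding chain, had 0, 0 and 1 counts. Il2rg held 68.6 ± 1.60% of the summed per-kilobase level of its family. Of the partner chains outside these families, Crlf2, which joins Il7r in the receptor for TSLP, lay at 9.56 ± 0.270 CPM, and Il13ra1, which joins Il4ra in the receptor for IL-13, at 2.31, 2.07 and 0.699 CPM in libraries 1, 2 and 3.

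**Figure D3:**
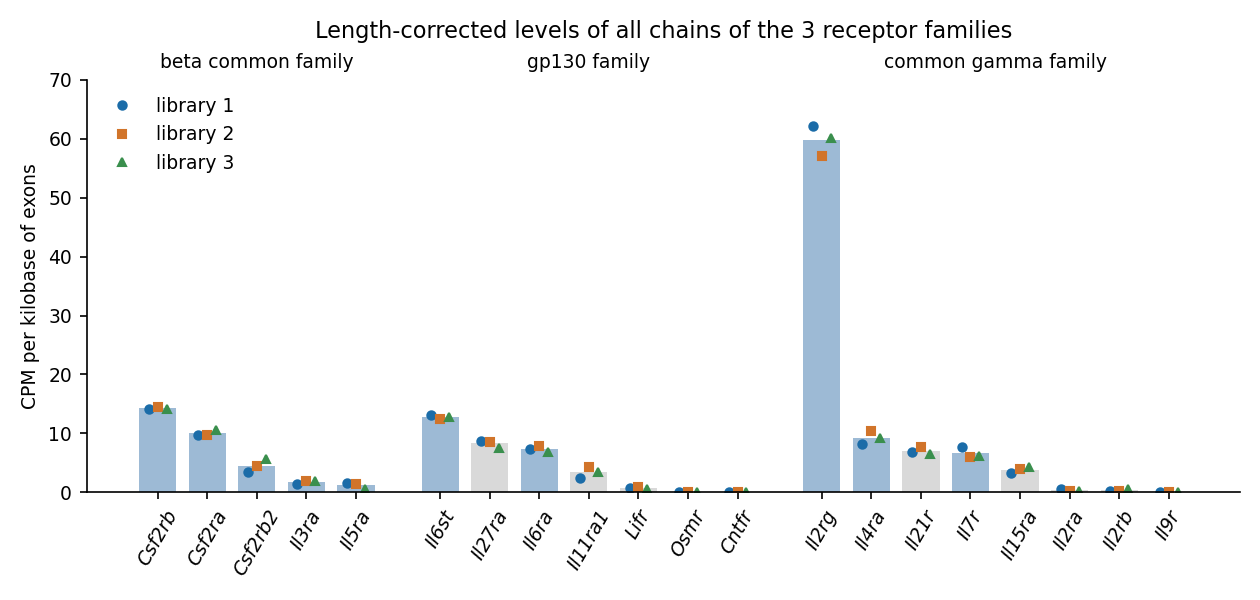
CPM per kilobase of exons for every chain of the 3 receptor families, with bars at the mean and marks for the 3 libraries. Blue bars are the 10 genes described here and grey bars the other family chains. Il2rg reaches 59.8 CPM per kilobase and no other chain exceeds 14.5 in any library.

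Of 19 genes of cytokines that bind these receptors 7 reached 1 CPM, beside 53.1% of all genes, and 12 did not. Of these 12, Il3, Csf2, Il2, Il9 and Il21 had no count in any library. The highest was Il15, at 40.4, 40.7 and 40.0 CPM in libraries 1, 2 and 3, followed by Clcf1, a ligand of the CNTF receptor, at 17.2 ± 3.30 CPM and Osm, the gene of oncostatin M, at 4.28 ± 0.676 CPM. The ligands of the beta common receptors were thus at or near the floor, with Il5 at 1, 4 and 5 counts. Il7 lay at 2.21 ± 0.128 CPM and Il6 had 1, 3 and 6 counts.

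Of the genes through which the receptors signal, the JAK and STAT genes described here each had a mean of 1 CPM or more. Jak1, which is bound by chains of the gp130 and common gamma families, lay at 59.7 ± 2.67 CPM per kilobase, Jak2, the kinase of the beta common chain, at 24.5 ± 2.62, Jak3, the partner of Il2rg, at 13.4 ± 1.27, and Tyk2 at 7.29 ± 0.345 CPM per kilobase. Stat3 lay at 24.7 ± 1.33, Stat5b at 18.2 ± 1.46 and Stat5a at 12 ± 1.65 CPM per kilobase, Stat5a and Stat5b sharing 608 words. Stat6, the factor activated by the IL-4 receptor, was at 185, 84.1 and 82.4 CPM in libraries 1, 2 and 3, so library 1 stood apart for Stat6 but held the lowest level of Il4ra. The spread of Stat6 was 30.3 times the trend in edgeR's quasi-likelihood fit, which did not pass over all genes (adjusted p = 0.279). It passed with no expression filter (adjusted p = 0.0193) and without library 3 (adjusted p = 0.0170), and the adjusted p ran from 0.0170 to 0.999 over the edgeR settings, the highest without library 1, and DESeq2 called Stat6 a dispersion outlier. Of 8 feedback and survival targets of JAK-STAT signalling 7 reached 1 CPM, led by the survival genes Mcl1 at 359 ± 62.4 CPM and Bcl2 at 291 ± 6.11 CPM and the kinase gene Pim1 at 92.4 ± 9.81 CPM. Of the feedback inhibitors, Cish lay at 21.5 ± 2.94, Socs3 at 10.2 ± 1.72, Socs2 at 4.51 ± 1.47 and Socs1 at 0.820 ± 0.444 CPM.

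On the CPM scale most of the 10 genes differed little between the libraries. This depends on the scaling, since per 1000 counts of the ERCC spike-in entries the 10 genes together had 40.4, 62.6 and 102 counts in libraries 1, 2 and 3. In CPM the highest library was at least 1.5 times the lowest for 2 of the 10 genes, Il5ra (2.79-fold) and Csf2rb2 (1.58-fold), against 28.2% of genes at 1 CPM or more, and the median ratio was 1.2, against 1.29 over those genes. A chi-square test of the counts, with Benjamini-Hochberg adjustment over 12965 genes, found 8 of the 10 to differ beyond read-counting noise, a share near the 82.6% found over all tested genes. The exceptions were Csf2rb (adjusted p = 0.511) and Csf2ra (adjusted p = 0.185), and Il6st was near the threshold (adjusted p = 0.0463). Amplified reads are not independent molecules, so the test covers read-counting error only.

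Set against the spread of other genes of like abundance, none of the 10 stood out. In edgeR's quasi-likelihood fit 0 of 10 passed after adjustment over all 12965 genes, against 0.00771% of them (1 gene, the neutrophil elastase gene Elane), and 0 of 10 had an unadjusted p under 0.05, against 4.54% of genes. DESeq2 called 0 of 10 as a dispersion outlier, against 0.231% of genes. The ratio of each gene's quasi-dispersion to the trend was highest for Il5ra at 2.81 (adjusted p = 0.982), Csf2rb2 at 2.05 and Il7r at 1.45, and lowest for Csf2rb at 0.0118. Its median was 0.460 over the 10 genes and 0.770 over all tested genes.

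Lists of cell type markers also differed between libraries, and their values are given beside the genes that differed most. For Il5ra, Il3ra and Csf2rb2, lists of myeloid cells are given. Of the 5 eosinophil genes 3 reached 1 CPM, and they summed to 15.2, 40.5 and 41.0 CPM in libraries 1, 2 and 3, lowest in library 1, where Il5ra was highest and Il3ra and Csf2rb2 were lowest. Prg2, a granule protein gene that made up most of the sum, lay at 9.77, 26.9 and 26.9 CPM, and the granule genes Epx and Prg3 lay at 1.30, 8.01 and 7.29 CPM and at 0, 0.558 and 0.599 CPM. Siglecf, a surface marker of eosinophils, lay at 2.93, 5.06 and 5.33 CPM. The eotaxin receptor gene Ccr3 differed from these in its order, at 1.17, 0.0398 and 0.899 CPM, highest in library 1 like Il5ra. The 5 mast cell and basophil genes, all at 1 CPM or more, summed to 38.1, 54.1 and 52.5 CPM. Cpa3 made up most of this sum at 29.1, 30.2 and 28.0 CPM, lowest in library 3. Mcpt8, Prss34, Ms4a2 and Fcer1a were each lowest in library 1. The 5 granulocyte-monocyte progenitor genes, all at 1 CPM or more, summed to 1082, 2076 and 3130.5 CPM, lowest in library 1 and highest in library 3, as Il3ra and Csf2rb2 were. Mpo, the myeloperoxidase gene, made up most of this sum at 683, 1544 and 2403 CPM, while Csf3r, the G-CSF receptor gene of the same list, ran the other way at 284, 243 and 231 CPM. The 6 neutrophil genes, all at 1 CPM or more, summed to 179, 44.0 and 98.9 CPM, and of 5 macrophage genes 1 reached 1 CPM and Marco had no count, with sums of 3.03, 1.39 and 2.40 CPM. The part of these cells in the levels of Il5ra, Il3ra and Csf2rb2 was not tested.

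For Il7r the lists of lymphoid cells are given. The 5 lymphoid-primed progenitor genes, all at 1 CPM or more, summed to 1118, 1030.2 and 1029.5 CPM, highest in library 1 like Il7r. Satb1 (379, 303 and 294 CPM), Flt3 (379, 339 and 341 CPM) and Rag1 (11.8, 10.8 and 11.5 CPM) were highest in library 1, whereas Dntt (339, 366 and 372 CPM) and Ccr9 (8.66, 11.3 and 11.2 CPM) were lowest there. The 5 type 2 innate lymphoid genes, which progenitors also express in part, were all at 1 CPM or more. They summed to 59.0, 61.2 and 59.2 CPM, but single genes ran opposite ways. Gata3 (12.1, 8.05 and 8.16 CPM) and Icos (6.74, 3.23 and 3.43 CPM) were highest in library 1, like Il7r. Rora (22.2, 26.9 and 27.4 CPM), Il1rl1 and Il17rb were lowest there. The 5 B cell genes, likewise all at 1 CPM or more, summed to 33.6, 35.7 and 47.6 CPM. Of 5 T cell genes 1 reached 1 CPM, with sums of 2.25, 3.98 and 4.23 CPM, and that gene, Cd247, had 24, 96 and 75 counts and shares 53.0% of its words with Pou2f1. Of the other genes of the T cell receptor complex, Cd3d had 22, 0 and 36 counts, Cd3e 0, 0 and 2 counts and Cd3g 1, 0 and 4 counts, and the adaptor gene Trat1 had 22, 4 and 10 counts. The 5 stem cell genes summed to 1301, 1109 and 990.5 CPM, and 4 of 5 dendritic cell genes reached 1 CPM, with sums of 13.1, 15.5 and 16.7 CPM. The part of these cells in the level of Il7r was not tested.

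**Figure D4:**
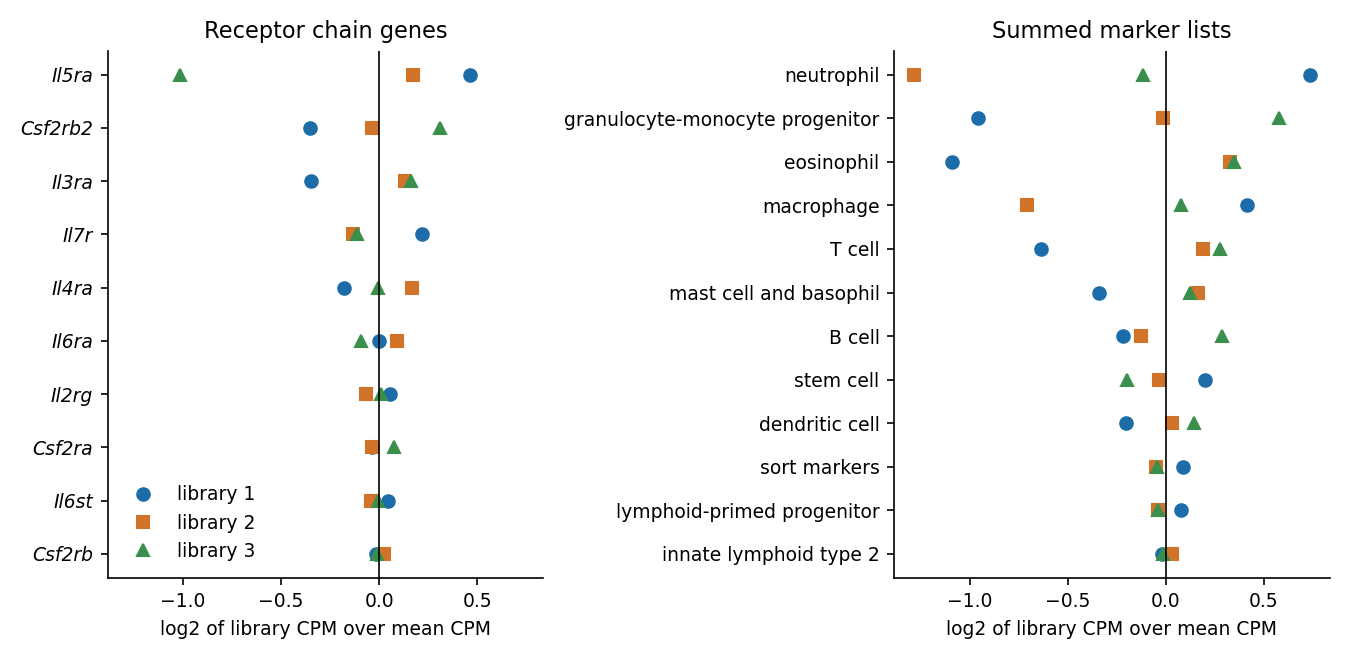
Left, log2 of each library's CPM over the mean CPM for the 10 receptor chain genes. Right, the same for the summed CPM of each marker list (5 or 6 measured genes each). Il5ra is lowest in library 3 and Csf2rb2 lowest in library 1, while the eosinophil sum is lowest in library 1 and the neutrophil sum lowest in library 2.

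Upstream sequence was available from RefSeq (GRCm38.p6) for 9 of the 10 genes and was searched, in the 250 bases before the transcription start and on both strands, for letters that blood transcription factors and Capicua are known to bind. The windows of the genes with the highest and the lowest per-kilobase level are shown, each as read in the direction of its gene, with matches in capitals. They are chrX:101268256-101268505 for Il2rg and chr6:106749038-106749287 for Il5ra, both of genes on the minus strand:
Il2rg: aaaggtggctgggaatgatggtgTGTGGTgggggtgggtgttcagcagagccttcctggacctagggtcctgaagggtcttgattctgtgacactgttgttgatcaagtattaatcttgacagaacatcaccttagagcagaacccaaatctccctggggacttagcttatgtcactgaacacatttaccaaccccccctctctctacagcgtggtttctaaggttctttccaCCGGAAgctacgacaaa
Il5ra: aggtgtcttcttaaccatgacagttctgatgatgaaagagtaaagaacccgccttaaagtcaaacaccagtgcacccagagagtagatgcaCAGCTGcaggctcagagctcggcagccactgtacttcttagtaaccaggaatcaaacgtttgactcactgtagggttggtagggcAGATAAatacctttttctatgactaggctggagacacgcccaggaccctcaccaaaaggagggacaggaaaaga
The capitals in Il2rg mark the RUNX core TGTGGT and the ETS core CCGGAA. Those in Il5ra mark the E-box CAGCTG and the GATA core AGATAA. Among the 9 genes TGTGGT was found in 1, against 14% of 32851 promoters, CCGGAA in 2 (Il6st and Il2rg), against 12%, CAGCTG in 2 (Il5ra and Il4ra), against 13%, and AGATAA in 2 (Il6ra and Il5ra), against 9.99%. The PU.1 core GAGGAA was found in 3 (Il6ra, Csf2rb2 and Csf2ra), against 23.3%, and the STAT motif TTCNNNGAA in 2 (Il7r and Csf2rb2), against 7.02%. The Capicua octamers TGAATGAA and TGAATGGA, present in 1.08% and 1.01% of promoters, were found in none of the 9 windows. CAGCTG reads the same on both strands. The windows follow the RefSeq transcription start. Those of Il4ra, Il3ra, Il7r and Csf2ra overlap the gene as annotated in GENCODE M21, and that of Il7r lies wholly inside it. A match of letters is a description of the sequence only.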

How the data were processed

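RNA of 3 control libraries was measured by sequencing. Amplification started from 10 ng of RNA and gave 400 bp inserts, per the labels' protocols, so duplicate reads can inflate counts. The values deposited by the authors are whole-number read counts for each gene symbol, without normalization. TopHat2 2.0.9, HTSeq, DESeq2 and the build mm10 appear in the submitters' processing notes. No source used here gives the gene model or strand setting. Alignments in no gene took 42.9% to 48.4% of all entries and non-unique ones 16.0% to 17.0%. These, 92 ERCC entries and ambiguous alignments were left out, so near-identical genes are undercounted.

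Counts were divided by gene totals (24421 symbols). Exon lengths, positions and shared 50-base words came from GENCODE M21 (GRCm38), which matched 95.7% of symbols. The spread test used edgeR 4.0.16 (intercept only, TMM, robust, mean of at least 1 CPM) and an F test of quasi-dispersion over trend, and DESeq2 1.42.0 as alternative. It and the chi-square test (2 degrees of freedom) used adjusted p under 0.05 and were tested on simulated data. Python 3.11.15, SciPy 1.17.1, Biopython 1.88 and R 4.3.3 were used. Named genes were the 10 receptor genes, every chain of the families, the JAK and STAT genes except an item that is not reported here, and, of other lists, up to the 3 highest and those with no count. The other genes named were chosen after their values were seen. The genes and lists were chosen with earlier results of these data known. Alternatives were other scalings, lengths, pseudocounts, filters and leaving out each library. Ly6g and Ly76, listed as sort markers, had no entry among the counted gene symbols and were not analysed here.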

Additional observations from a re-analysis of the deposited data

Results flagged for a closer look

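The ERCC entries, synthetic spike-in sequences that no comparison above used and the labels do not mention, held counts in every library. They came to 1.48%, 0.954% and 0.582% of the gene counts in libraries 1, 2 and 3, above the 3 counts that a 0 allows. Per 1000 ERCC counts, the 10 receptor chain genes together had 40.4, 62.6 and 102 counts in libraries 1, 2 and 3, whereas their sum in CPM lay between 596 and 599. Which scale follows the RNA per cell was not tested.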

How the results depend on the processing

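The 7 chain comparisons kept their direction under all 77 alternative values, of scaling, pseudocount, length or libraries. Only the alternatives of length could have reversed a direction. Scaling and pseudocount act on both chains of a library alike, and all 3 libraries had the same sign before any was left out. None of the comparisons could pass a threshold with 3 libraries. The count of the 10 genes beyond read-counting noise was 8, and 5 to 6 when a library was left out (5 without library 1, 5 without library 2). Without one library fewer reads were compared. It was 7 with no expression filter and, where the filter was 5 CPM, 6 of the 8 genes still tested, since Il3ra and Il5ra fell below it. The count more variable than the trend was 0 in every edgeR setting and with DESeq2, while over all genes the calls numbered 1 as reported, 16 with no filter, 33, 9 and 9 without libraries 1, 2 and 3, and 30 with DESeq2. All 10 reached the minimum under each scaling, and 8 reached 5 CPM. Totals without Rn45s raised the levels by 9.96% to 10.9%, and those without ribosomal protein genes by 5.16% to 5.48%. TMM and DESeq2 factors moved them by between -0.249% and 0.279%. Leaving out a library moved them by between -19.0% and 25.3%, both for Il5ra. Counts of 63 to 180 limit Il3ra and Il5ra. Chains were paired within each library, but libraries were not paired between groups, since only the control group was analysed here.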
